A study of Mus musculus with 16 samples.

Results

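The transcriptome of splenic cDC1s that had lost Trim33 was compared with that of WT cDC1s. All genes with a mean of at least 1 TPM (the share of transcripts of a library, scaled to a fixed total and corrected for gene length) over the 4 cDC1 libraries were taken, which were 11141 of the 17721 genes of the cDC table. WT mice were Trim33 fl/fl without Cre, and cKO mice were Trim33 fl/fl Itgax-Cre (labelled Trim33-/-), in which a Cre transgene driven by regulatory DNA of Itgax, the gene of CD11c, excises the floxed Trim33 segment in CD11c-expressing cells. Both were on the C57BL/6 background and 6 to 8 weeks old, so both carried the floxed alleles and only cKO mice carried the transgene. The cDC1s were sorted from spleen as CD11c+ SiglecH- MHC II+ CD24+ CD172a- cells into 2 WT and 2 cKO libraries. The labels number the libraries without tying them to animals. Per the study, each library was a biological repeat from several mice, with more mice per cKO than per WT library. The p values thus measure the spread between pools, and the part of pool size in the results was not tested. The 3 WT and 3 cKO cDC2 libraries of the same table shared the estimate of the spread and served to ask where the cDC1 response differed.

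TRIM33 (TIF1γ) is a nuclear protein of the TIF1 family, whose members pair a RING, B-box and coiled-coil motif with a PHD finger and bromodomain that bind modified histone tails, and it is known as a corepressor and as a partner and ubiquitin ligase of SMAD proteins. Conventional DCs of type 1 depend on the transcription factors IRF8, BATF3 and ID2 and are known for cross-presenting antigen to CD8 T cells, for sensing dead cells through the receptor CLEC9A and for making IL-12. A share of splenic cDC1s matures without infection, acquires CCR7 and migrates to the T cell zone.

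Trim33 (chr3:103279293-103358770, GRCm38.p6) had 15.5 and 18.2 TPM in the 2 WT libraries and 7.88 and 7.71 TPM in the 2 cKO libraries. Both cKO libraries lay below both WT libraries (log2 fold change −1.02, SE 0.13, adjusted p 0.000344), but neither was near 0. The per-gene values do not separate the floxed exons from the rest of the transcript. In bulk RNA, fewer cells of a type and less RNA per cell cannot be told apart, here or for any gene below. Trim28, the TIF1 family corepressor that acts with KRAB zinc finger proteins, rose from 127 and 122 TPM to 244 and 232 TPM (log2 fold change 0.93, SE 0.19, adjusted p 0.00599). Trim24, the remaining tested member of the family, had 20.7 and 19.8 TPM in WT and 22.1 and 21.1 TPM in cKO libraries and was not called (adjusted p 0.49). Trim33 was called in each of the 10 fits made without 1 cDC library, whereas Trim28 was not called without any 1 of the 4 cDC1 libraries or without cKO cDC2 library 3. All adjusted p values are from limma with Benjamini-Hochberg adjustment over the 11141 genes, fold changes are cKO over WT on the log2(TPM + 1) scale, and SE is the limma standard error.

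Depth was estimated at 18.8 to 19.8 M reads per cDC1 library, at which 3 reads on a 2000-base transcript equal 0.148 to 0.154 TPM. Across genes the replicates correlated at r = 0.9851 (WT) and 0.9941 (cKO), genes not being independent replicates, and no libraries were identical. The 24 cDC1 identity genes summed to 14100 and 13200 TPM in WT and 11700 and 11700 TPM in cKO libraries, and 5 of them were called lower, as described below. Irf8, Batf3 and Id2, on which the subset depends, were each at 176 TPM or more in every library, and Sirpa, the gene of CD172a, was at most 7.43 TPM. Summed markers of other cells were not equal between libraries. Erythroid genes summed to 3190 and 385 TPM in WT and 1250 and 1010 TPM in cKO libraries, and neutrophil genes to 3.88 and 18.8 TPM and 25 and 44.5 TPM. Summed cDC2 identity genes were 369 and 505 TPM in WT and 545 and 560 TPM in cKO, pDC identity genes 260 and 247 TPM and 379 and 375 TPM, B cell genes 35.5 and 48.1 TPM and 64.7 and 58.8 TPM, and NK cell genes 15 and 24.4 TPM and 35.9 and 40.3 TPM. Platelet genes summed to 3.56 and 6.82 TPM in WT and 3.23 and 3.08 TPM in cKO, and T cell genes to 10.7 and 10.4 TPM and 9.77 and 10.4 TPM. Monocyte and macrophage genes (911 and 1100 TPM and 937 and 911 TPM) overlapped between genotypes, as did erythroid genes. Of the listed T cell, NK cell, neutrophil and B cell genes in the table, 6 of 8, 5 of 8, 4 of 10 and 2 of 9 were under 1 TPM in every library, and Cd3e, Ncr1, Klrb1c, Ly6g and Pax5, of these, at most 0.57 TPM. Other members were present and higher in both cKO libraries: the NK cell receptor gene Klrd1 had 10.7 and 21.6 TPM in WT and 31.9 and 38.3 TPM in cKO, the neutrophil genes S100a9 and Ngp 0.62 and 7.05 TPM and 0.62 and 4.16 TPM in WT and 8.29 and 15.4 TPM and 6 and 12.4 TPM in cKO, and Cd22 9.85 and 13 TPM and 45.3 and 36.7 TPM. The part of these cells in the results was not tested.

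A gene was called when its adjusted p was 0.01 or lower and its log2 fold change 0.5 or more in size, both on TPM as deposited and after median-of-ratios scaling, the larger of the 2 adjusted p values being given throughout. By this rule 991 genes were higher in cKO cDC1s (8.9% of the 11141 tested) and 770 were lower (6.91%). Without WT cDC1 library 1 the counts were 418 and 394, without cKO library 1 339 and 286, and without cKO library 2 382 and 371. By at least 1 on the log2 scale as deposited 526 of these genes rose and 455 fell, and by at least 2, 39 rose and 131 fell. In all 1761 called genes the WT and cKO values did not overlap, as was also the case for 77.1% of all tested genes. Of the genes called higher, 66 had a WT mean under 1 TPM, and of those called lower, 85 had a cKO mean under 1 TPM. They could enter the test through the group in which they were high.

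The balance of rises and falls depended on the scaling. The 10 most abundant genes of WT cDC1s took 15.6% and 14.8% of the transcripts in the WT libraries and 12.4% and 12.6% in the cKO libraries. They were led by Cd74, the MHC class II invariant chain (37762 and 34815 TPM in WT, 30156 and 28200.2 TPM in cKO), Tmsb4x, the actin-binding thymosin β4 (21831 and 23176 TPM, then 14109 and 16281 TPM), and Cst3, the protease inhibitor cystatin C (18883 and 16908 TPM, then 12438 and 12928 TPM). In these 3 genes both cKO libraries lay below both WT libraries, and none of the 3 was called. TPM sums to a fixed total in each library, so a share lost by some genes is gained by others. The median of the log2 fold changes of all tested genes was 0.18 as deposited and −0.01 after median-of-ratios scaling. TPM as deposited alone gave 1849 higher and 773 lower calls (70.5% higher), median-of-ratios scaling alone 991 and 1155 (46.2%), and quantile normalization 1194 and 1058 (53.0%). The requirement of both scalings left 56.3% higher. Fold changes below are as deposited, so a value of 0.18 is that of the median gene.

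**Figure D1:**
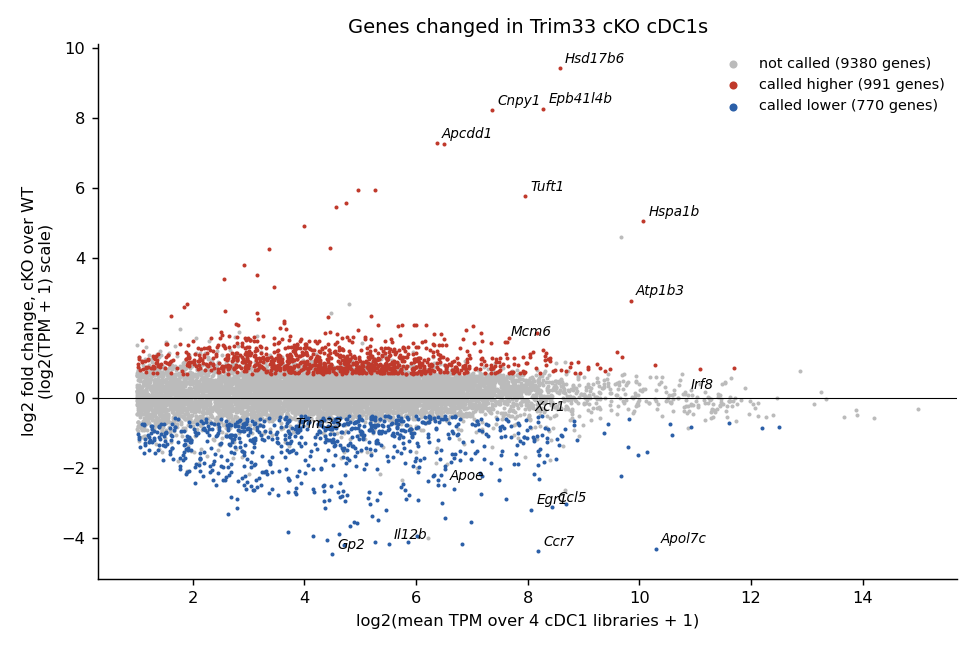
Each point is 1 of 11141 tested genes, with log2(mean TPM over the 4 cDC1 libraries + 1) on the x axis and the log2 fold change of cKO over WT (log2(TPM + 1) scale) on the y axis, called genes in red (991 higher) and blue (770 lower). A few rises reach 5 to 9 on the log2 scale from very low WT values, while large falls such as those of Ccr7 and Apol7c are seen among abundant genes.

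**Figure D2:**
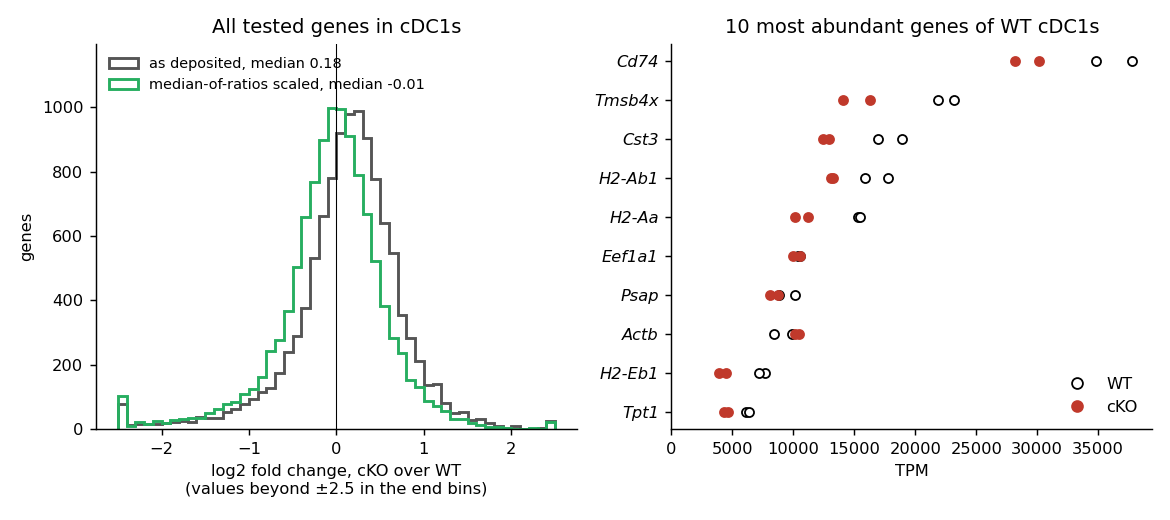
Left, the number of tested genes per log2 fold change (cKO over WT, bins of 0.1) for TPM as deposited (grey) and after median-of-ratios scaling (green), whose medians are 0.18 and −0.01. Right, TPM of the 10 most abundant genes of WT cDC1s in the 2 WT (open) and 2 cKO (red) libraries, in which Cd74, Tmsb4x, Cst3 and the MHC class II genes are lower in both cKO libraries.

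The largest rises were of genes that WT cDC1s hardly expressed. In 14 genes both WT libraries were under 0.5 TPM and both cKO libraries at 5 TPM or more, and they are described here by their values without a fold. Hsd17b6, a hydroxysteroid dehydrogenase (chr10:127990931-128007648), had 0.13 and 0.07 TPM in WT and 704 and 814 TPM in cKO libraries. Cnpy1, a relative of a regulator of FGF signalling, had 0.11 and 0.07 TPM and then 311 and 342 TPM. Its neighbour En2, an engrailed homeobox factor of hindbrain development, had 0.2 and 0.24 TPM and then 71.5 and 78.1 TPM. The WT values of all 3 were at most 0.24 TPM, whereas Hsd17b6 in cKO cDC1s was among the more abundant transcripts.

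Selenbp2, a selenium-binding protein gene, was at 0 and 0.39 TPM in WT and 179 and 179.9 TPM in cKO libraries, and Apcdd1, a membrane inhibitor of WNT signalling, at 0.06 and 0.06 TPM and 159.8 and 167 TPM. LOC108168956 was listed at 0 in both WT libraries and had 64.1 and 56.6 TPM in cKO libraries. Flrt3, a cell adhesion and axon guidance protein, went from 0.02 and 0.18 TPM to 51.3 and 51.6 TPM, and the proprotein convertase gene Pcsk6 from 0.07 and 0.02 TPM to 50.3 and 40.7 TPM. Most of these genes are known from epithelia, brain or other nonhematopoietic tissues. Slc9c1, a sodium-proton exchanger of sperm, reached 30.5 and 29 TPM in cKO libraries from 0.03 and 0 TPM in WT. Il20ra, a receptor chain for IL-20 cytokines, reached 18.6 and 18.6 TPM from 0 and 0.06 TPM. Gm17783 (12.6 and 13.5 TPM), Csn2, the milk protein β-casein (7.87 and 11.7 TPM), and Tmem229a (5.28 and 5.58 TPM) were each listed at 0 in both WT libraries, and Cgn, the tight junction protein cingulin, had 0.04 and 0 TPM in WT and 5.39 and 5.01 TPM in cKO. The gene nearest to the limit without meeting it was Gm609, listed at 0 in WT and at 4.03 and 4.24 TPM in cKO, which is named after its values were seen. In the other direction Adgrf5, an adhesion G protein-coupled receptor, was the one gene that met the rule, with 11.8 and 8.78 TPM in WT and 0.13 and 0.1 TPM in cKO libraries.

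Several of these genes lay next to each other. Cnpy1 and En2 are 28629 bases apart on chromosome 5. Slc9c1, Gm17783 and Gm609 follow each other on chromosome 16, with 3216 bases between Slc9c1 and Gm17783 and 15640 between Gm17783 and Gm609. On chromosome 3, Selenbp2 lies 34701 bases from Tuft1, the gene of the enamel protein tuftelin, and 55663 bases from Cgn. LOC108168956 starts 90 bases from Epb41l4b. Neighbours that are named only for their position were not all changed: within 100000 bases, Insig1 near En2 and Pogz near Cgn were not called, whereas Rbm33 near Cnpy1 rose (24.5 and 27.5 TPM in WT, 72.5 and 64.4 TPM in cKO) and Prim1, a DNA primase subunit near Hsd17b6, rose from 20.9 and 23.8 TPM to 76.4 and 85.3 TPM. These neighbours are examples among others of both kinds, and their share was not compared with the 8.9% called higher among all tested genes. Whether reads of close neighbours were separated by strand is not given in the sources used here, so the values of LOC108168956 and Epb41l4b cannot be fully told apart.

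Called genes with large rises from a measurable WT level followed. Epb41l4b, a FERM domain protein of epithelial cells, rose from 0.64 and 1.42 TPM to 599 and 629.9 TPM (log2 fold change 8.27, SE 0.41, adjusted p 3.25e-06). Tuft1 rose from 7.76 and 8 TPM to 461 and 504 TPM (log2 fold change 5.77, SE 0.11, adjusted p 2.04e-08), and the WT libraries differed by less than 1 TPM. Nptxr, the neuronal pentraxin receptor, rose from 1.63 and 0.71 TPM to 37.4 and 44.4 TPM (log2 fold change 4.30, SE 0.20, adjusted p 1.45e-06). Nptxr overlaps Npcd on the same chromosome, so their reads may have been shared. Atp1b3, a β subunit of the sodium-potassium pump, had 237 and 227 TPM in WT and 1525 and 1684 TPM in cKO libraries (log2 fold change 2.78, SE 0.17, adjusted p 1.12e-05). Hspa1b, an inducible HSP70 gene with a near-identical copy, rose from 36.2 and 105 TPM to 2279 and 1875 TPM, with a larger error than the others (log2 fold change 5.05, SE 1.15, adjusted p 0.00908). Its call was lost in 12 of the 24 alternative settings treated at the end. In WT cDC2s, without loss of Trim33, Hspa1b had 130, 43.2 and 1193 TPM. The copy Hspa1a had 37.4 and 106 TPM in WT and 1662 and 1464 TPM in cKO cDC1s and was not called.

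The 250 bases before the RefSeq start (GRCm38.p6) are shown for 4 of the genes that were silent or nearly silent in WT cDC1s, because they are among the largest rises. They come from 4 chromosomes and range from 41.2% G and C for Hsd17b6 to 88.0% for Epb41l4b, with 50.0% for Flrt3 and 53.2% for Cnpy1, so these 4 windows do not share one base composition.
Hsd17b6: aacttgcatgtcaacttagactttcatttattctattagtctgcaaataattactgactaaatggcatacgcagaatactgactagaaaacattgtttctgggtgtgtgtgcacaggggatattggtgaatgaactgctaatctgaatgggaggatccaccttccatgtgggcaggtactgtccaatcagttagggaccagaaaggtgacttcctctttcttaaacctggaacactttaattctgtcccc
Cnpy1: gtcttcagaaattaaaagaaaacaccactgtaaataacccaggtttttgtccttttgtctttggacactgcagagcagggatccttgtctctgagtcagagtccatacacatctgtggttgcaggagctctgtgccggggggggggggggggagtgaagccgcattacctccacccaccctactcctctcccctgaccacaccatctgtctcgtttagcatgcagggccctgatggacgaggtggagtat
Epb41l4b: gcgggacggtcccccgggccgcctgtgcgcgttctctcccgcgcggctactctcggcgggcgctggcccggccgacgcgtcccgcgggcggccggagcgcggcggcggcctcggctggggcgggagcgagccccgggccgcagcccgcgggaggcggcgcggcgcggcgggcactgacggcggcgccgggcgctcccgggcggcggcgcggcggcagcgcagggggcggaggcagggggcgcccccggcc
Flrt3: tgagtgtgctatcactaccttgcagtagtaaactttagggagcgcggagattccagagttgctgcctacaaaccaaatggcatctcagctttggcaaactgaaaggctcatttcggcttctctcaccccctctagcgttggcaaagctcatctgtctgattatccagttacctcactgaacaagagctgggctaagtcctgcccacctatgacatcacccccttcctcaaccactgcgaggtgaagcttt
The windows are chr10:128007612-128007861, minus strand, for Hsd17b6, chr5:28245789-28246038, minus strand, for Cnpy1, chr4:57143157-57143406, minus strand, for Epb41l4b, and chr2:140671477-140671726, minus strand, for Flrt3. The windows of Hsd17b6 and Epb41l4b overlap the annotated gene, whose outer end lies beyond the start used. That of Epb41l4b also overlaps LOC108168956 (chr4:57143258-57144651).

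The 15 largest falls held cytokines, maturation genes and genes of other kinds. Gp2, a receptor for bacterial fimbriae on M cells, fell from 40.6 and 43.6 TPM to 1.15 and 0.77 TPM (log2 fold change −4.47, SE 0.17, adjusted p 2.08e-07). Il12b, the p40 subunit of IL-12 and IL-23, fell from 69.8 and 101 TPM to 2.76 and 4.82 TPM (log2 fold change −4.18, SE 0.29, adjusted p 2.35e-05). The WNT modulator gene Dkk3 fell from 49.5 and 47.6 TPM to 1.72 and 1.66 TPM (log2 fold change −4.20, SE 0.29, adjusted p 1.53e-05). In these 3 genes both cKO libraries lay far below both WT libraries. Cd207, the C-type lectin langerin, fell from 125 and 117 TPM to 5.39 and 9.03 TPM, and Ltbp2, a latent TGF-β binding protein, from 24 and 22.8 TPM to 0.54 and 0.88 TPM. The precursor of irisin, Fndc5, had 65.3 and 46.8 TPM in WT and 3.78 and 3.79 TPM in cKO libraries, Mab21l3 59.2 and 42.8 TPM and 2.14 and 4.21 TPM, and Gm11837 28 and 36.7 TPM and 0.94 and 1.35 TPM. Apol7a, Apol7b and Apol7c of the apolipoprotein L cluster fell together (log2 fold changes −3.89, −4.12 and −4.30, adjusted p 5.28e-05, 1.39e-05 and 3.77e-05). Apol7c was by far the most abundant, at 2798 and 1969 TPM in WT and 102 and 137 TPM in cKO, and reads of these close paralogs may have been split between them.

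**Figure D3:**
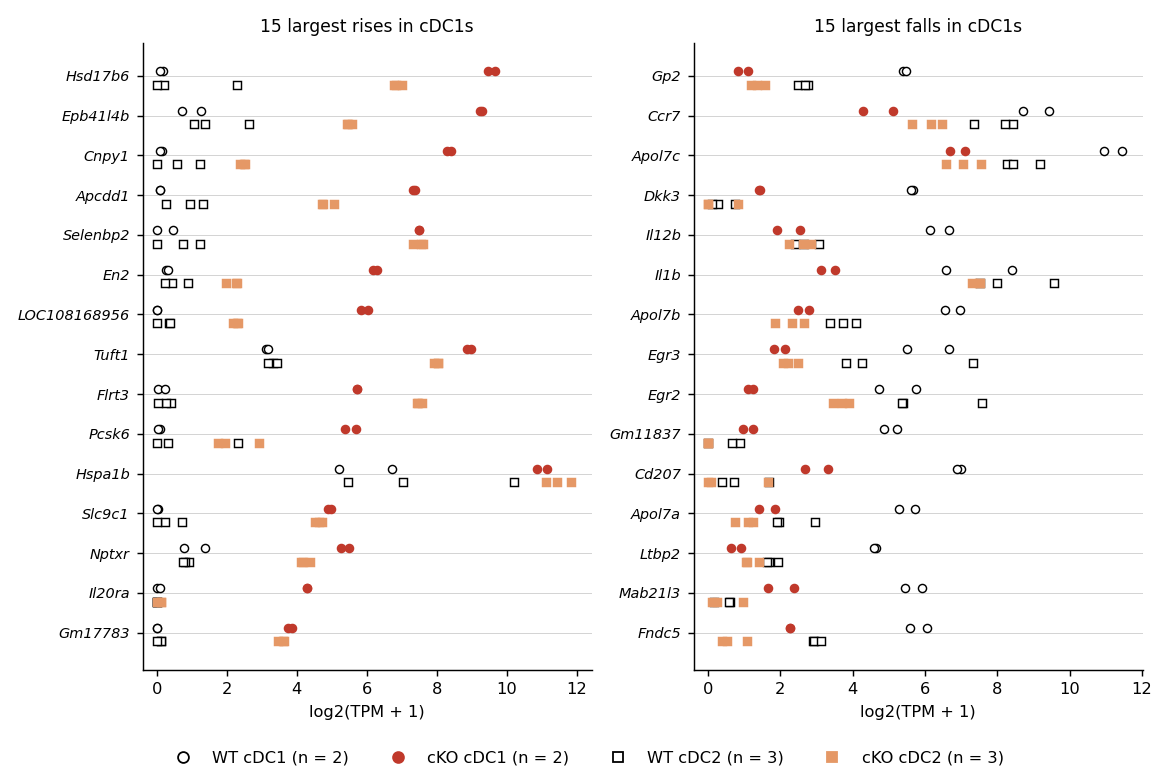
Log2(TPM + 1) in each cDC1 library (circles, 2 WT open and 2 cKO red) and cDC2 library (squares, 3 WT open and 3 cKO orange) for the 15 largest rises (left) and the 15 largest falls (right) among called genes with a mean of at least 10 TPM in the higher group. Circles of the genotypes do not overlap in any row because only genes with separate groups were taken. In rows such as Cnpy1, En2 and Il20ra the cDC2 squares move far less than the circles.

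Genes of mature, migratory DCs fell as a group, on a list chosen after an earlier analysis of these data had seen their values. Of 26 tested genes of this list 21 were lower and 0 higher, against 6.91% lower among all tested genes, and the median log2 fold change was −2.42 against 0.18 for all tested genes. Ccr7, the receptor that guides mature DCs to the T cell zone, fell from 694 and 417 TPM to 18.5 and 33.7 TPM (log2 fold change −4.37, SE 0.41, adjusted p 9.99e-05). Cacnb3, a calcium channel β subunit, fell from 324 and 141 TPM to 12.8 and 24.1 TPM, and Gadd45b, a stress-response gene, from 182 and 129 TPM to 14.6 and 22.9 TPM. Mreg, a melanosome transport gene, fell from 75.8 and 56.6 TPM to 4.59 and 6.4 TPM (log2 fold change −3.37, SE 0.17, adjusted p 2.98e-06). In all 4 the cKO values were well below the WT values, and in all 4 WT library 1 was the higher WT library. The chemokine gene Ccl5 fell from 881 and 364 TPM to 63.8 and 64.4 TPM, and Relb, an NF-κB subunit of DC maturation, from 221 and 131 TPM to 49.5 and 65.7 TPM (log2 fold change −1.56, SE 0.22, adjusted p 0.000517). Traf1, an adaptor of TNF receptors, fell from 338 and 219 TPM to 77.1 and 98.7 TPM. The summed TPM of the list was 8100 and 5440 TPM in the WT and 807 and 1040 TPM in the cKO libraries. In the 10 fits without 1 library the number called lower was 11 to 22, the fewest without cKO cDC1 library 1.

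Some of the genes through which DCs act on T cells fell as well. Among 12 tested costimulatory and coinhibitory genes 7 were lower and 0 higher, where 6.91% of all tested genes were lower. Cd274, the gene of PD-L1, fell from 43.6 and 38.5 TPM to 5.94 and 7.87 TPM (log2 fold change −2.42, SE 0.14, adjusted p 4.79e-06), Cd80 from 58.3 and 68.9 TPM to 29.2 and 32.7 TPM, and Cd40 from 85.5 and 59 TPM to 32 and 41.5 TPM (log2 fold change −0.94, SE 0.21, adjusted p 0.00535). The values of each were separate between genotypes, as were those of 77.1% of all tested genes. Pvr (−1.24), Havcr2 (−1.08) and Tnfrsf4 (−2.20) also fell, whereas the ICOS ligand gene Icosl had 271 and 177 TPM in WT and 144 and 147 TPM in cKO libraries and did not pass (adjusted p 0.0842). Without cKO cDC1 library 1, 3 genes of this list were called, and without WT library 1 or cKO library 2, 4 were.

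Of 11 tested cytokine genes 6 were lower and 0 higher, against 6.91% lower among all tested genes. Besides Il12b, Il1b fell from 94.6 and 335 TPM to 7.79 and 10.3 TPM and Tnf from 107 and 90.2 TPM to 9.38 and 16.6 TPM (log2 fold changes −4.17 and −2.87, adjusted p 0.00116 and 0.000139). Il15, which supports NK and memory CD8 T cells, fell from 44.6 and 36.9 TPM to 14.8 and 15.4 TPM, and Ltb and Il18 fell by less (−0.78 and −0.67). Tgfb1, the most abundant of the list, had 350.1 and 336 TPM in WT and 464 and 442 TPM in cKO and was not called (adjusted p 0.465). Of 11 chemokine genes 3 were lower, against the same share: Ccl5, Ccl22, a ligand of CCR4 (139.8 and 91.8 TPM in WT, 13.6 and 14.5 TPM in cKO), and Cxcl16 (296 and 210.3 TPM in WT, 59.8 and 76.9 TPM in cKO). In the 10 fits without 1 library the cytokine count was 2 to 6, with 2 called without cKO cDC1 library 1 and 3 without WT cDC1 library 1.

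Of 20 tested growth factor and cytokine receptor genes 6 were lower and 0 higher, against 6.91% and 8.9% of all tested genes. Ifngr1, the ligand-binding chain of the IFN-γ receptor, fell from 887 and 887 TPM to 430.4 and 447 TPM (log2 fold change −1.01, SE 0.09, adjusted p 7.07e-05), with WT replicates that were almost equal. Il15ra, which presents IL-15 to neighbouring cells, fell from 63.9 and 31.9 TPM to 10.2 and 12.1 TPM, and Il4ra from 71.8 and 45.8 TPM to 21.7 and 22.5 TPM. Tnfrsf1b (−1.28), Csf2rb2 (−0.90) and Il10ra (−0.78) were the others. Among 14 NF-κB factors and inhibitors 4 were lower and 1 higher, to be read against the same shares. The lower ones were Nfkbiz (−2.46), Rel (−1.72), Traf1 (−1.63) and Relb, while Nfkb1, the p50 precursor, rose from 109.5 and 125 TPM to 219 and 209 TPM (log2 fold change 0.86, SE 0.13, adjusted p 0.00152). Relb and Traf1 also belong to the maturation list. In the 10 fits without 1 library the receptor count was 2 to 7 and the NF-κB count 2 to 6. Without cKO cDC1 library 1 both were 2. Without cKO cDC1 library 2 they were 3 and 2, and the NF-κB count was 2 without WT library 2. Nfkb1 was not called without WT library 1 or either cKO library.

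Immediate-early response genes are switched on rapidly by many stimuli, cell isolation among them, and their list too was chosen with the values known. Of 22 tested genes 9 were lower in cKO cDC1s and 0 higher, against 6.91% lower among all tested genes, with a median log2 fold change of −1.48. Egr1 fell from 542 and 418 TPM to 47.7 and 55 TPM (log2 fold change −3.19, SE 0.44, adjusted p 0.000613). Egr2 fell from 25.2 and 52.7 TPM to 1.16 and 1.37 TPM, and Egr3 from 44.5 and 99.7 TPM to 2.54 and 3.34 TPM. Nr4a3, an orphan nuclear receptor, had 27.8 and 80.2 TPM in WT and 2.59 and 3.88 TPM in cKO libraries, and Ier3 had 54.9 and 89.3 TPM and 4.27 and 6.71 TPM. The cKO replicates were close to each other, but the WT libraries were not: WT library 2 was higher for Egr2, Egr3, Nr4a3 and Ier3, and WT library 1 for Egr1 and the phosphatase gene Dusp2 (431 and 251 TPM, against 81.2 and 94.9 TPM in cKO). Zfp36, the RNA-binding protein tristetraprolin, was not called (1969 and 2889 TPM in WT, 1276 and 1366 TPM in cKO, adjusted p 0.0394). The count was 3 to 16 in the 10 fits without 1 library, with 3 called without cKO cDC1 library 1 and 16 without WT cDC2 library 1. Time from tissue to lysis was not given in the sources used here, and its part in these values was not tested.

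**Figure D4:**
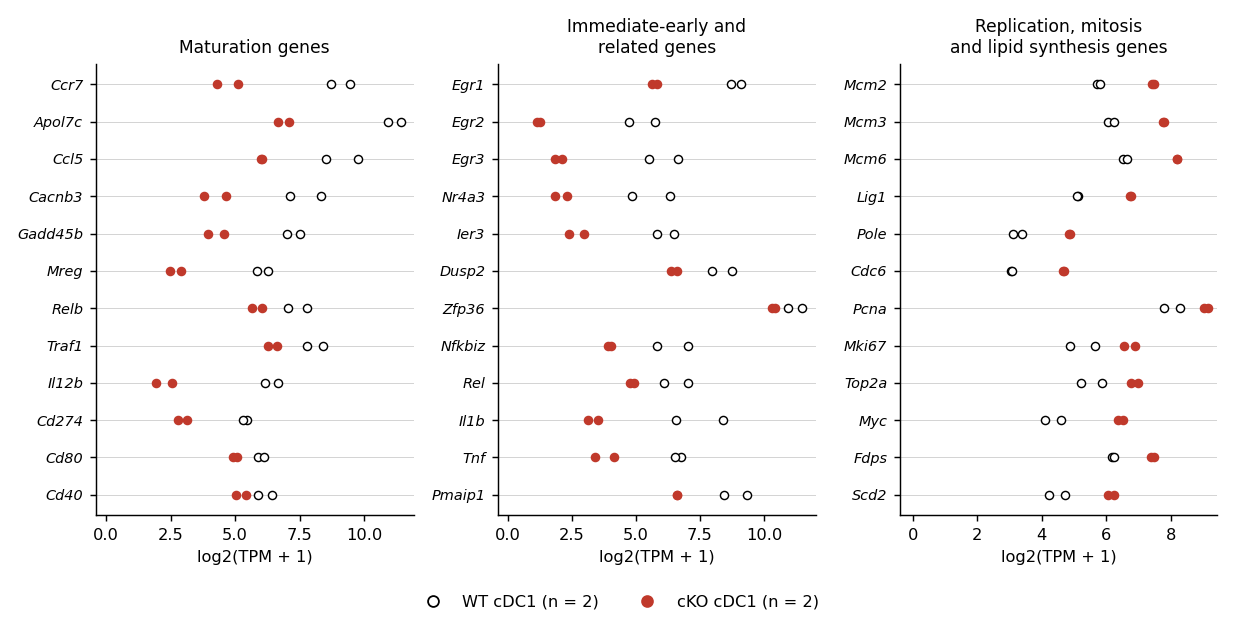
Log2(TPM + 1) in the 2 WT (open) and 2 cKO (red) cDC1 libraries for maturation genes (left), immediate-early and related genes (middle) and replication, mitosis and lipid synthesis genes (right). Both cKO libraries lie below both WT libraries in every row of the left and middle panels and above them in every row of the right panel, and the WT libraries are farther apart than the cKO libraries for genes such as Nr4a3 and Il1b.

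None of the lineage factor genes Irf8, Batf3 and Id2 was called, while some surface genes of the subset fell. Irf8 had 1754 and 1720.2 TPM in WT and 1928 and 1855 TPM in cKO libraries, and its log2 fold change of 0.12 (SE 0.33, adjusted p 0.875) turned to −0.08 after median-of-ratios scaling. Batf3 had 226 and 176 TPM and 217 and 199.6 TPM, with overlapping groups, and Id2 had 1877 and 1313 TPM and 1125 and 1080.2 TPM (log2 fold change −0.51, SE 0.21, adjusted p 0.0779). The chemokine receptor gene Xcr1 had 307 and 303 TPM in WT and 202 and 224 TPM in cKO and was not called (log2 fold change −0.52, SE 0.46, adjusted p 0.394), nor was Cd8a (489 and 460.1 TPM, then 187 and 228 TPM, adjusted p 0.0219). The error was shared with the cDC2 libraries, where Xcr1 had 3.77 ± 2.48 TPM (SD, n = 3) in WT and 3.22 ± 2.26 TPM in cKO. Cd8a had 13.2 ± 4.95 TPM and 12.3 ± 4.8 TPM there. An SE such as that of Xcr1 therefore does not describe the cDC1 replicates alone. In Id2, Xcr1 and Cd8a both cKO libraries lay below both WT libraries, while groups did not overlap in 77.1% of all tested genes. A missed threshold does not show that levels were equal. Of the 24 alternative settings treated at the end, Xcr1 was called in 1 and Cd8a in 3.

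Of 24 tested cDC1 identity genes 5 were lower and 0 higher, 6.91% of all tested genes being lower. Itgae, the gene of the integrin CD103, fell from 77.7 and 62 TPM to 9.63 and 10.1 TPM (log2 fold change −2.70, SE 0.27, adjusted p 9.94e-05). Cadm1, an adhesion molecule of cDC1s, fell from 192 and 196 TPM to 54.5 and 60.5 TPM (log2 fold change −1.74, SE 0.32, adjusted p 0.00204). Clec9a, the receptor for exposed actin of dead cells, fell from 547 and 536 TPM to 216 and 213 TPM (log2 fold change −1.33, SE 0.32, adjusted p 0.00861). With Cd207 and Ly75, the gene of DEC205 (58.6 and 49.8 TPM in WT, 27 and 26.6 TPM in cKO), these were the 5 called genes. In each of them both cKO libraries lay below both WT libraries, where groups did not overlap in 77.1% of all tested genes. The count was 2 to 6 in the 10 fits without 1 library, and 2 without WT cDC1 library 1 or either cKO cDC1 library. Without WT cDC1 library 2 it was 3. Among 30 tested DC lineage transcription factors 2 were lower and 1 higher, shares no larger than the 6.91% and 8.9% of all tested genes. These were Etv3 (136 and 124 TPM in WT, 26.2 and 27.8 TPM in cKO) and Relb, which were lower, and Mef2c, which was higher (8.11 and 15 TPM, then 31.9 and 28.4 TPM, log2 fold change 1.37, SE 0.23, adjusted p 0.00579), the last not without WT cDC1 library 1, either cKO cDC1 library or cKO cDC2 library 3.

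A few genes that mark other DC subsets or other blood cells were called in both directions, where 8.9% of all tested genes were higher and 6.91% lower. Of 16 tested cDC2 identity genes Itgam, the gene of CD11b, and Clec10a were higher (2.10 and 1.72) and Esam and Cd4 lower (−2.29 and −1.90). Of 12 pDC identity genes Cox6a2, Ly6c2 and Lair1 were higher and Pacsin1, Cd300c and Ccr9 lower. Among 14 monocyte and macrophage genes Ly6c2 (1.40) and Ccr2 (15.7 and 31.6 TPM in WT, 108 and 90.6 TPM in cKO) were higher, and Spic and Vcam1 lower (−2.11 and −1.92). Among 5 B cell genes the inhibitory lectin gene Cd22 was higher (9.85 and 13 TPM in WT, 45.3 and 36.7 TPM in cKO, log2 fold change 1.76, SE 0.22, adjusted p 0.000348) and Ms4a1, the gene of CD20, lower (−1.48). No tested T cell, NK cell, neutrophil, erythroid or platelet gene was called, where 2, 2, 6, 6 and 2 were tested and 1, 1, 1, 0 and 1 had an unadjusted p under 0.05 by limma. The calls in these lists rested on few libraries: without cKO cDC1 library 1, no monocyte and macrophage gene was called, and without WT library 1 or either cKO library 1 pDC gene was called higher. Of the cell surface genes used in the sort, none of 6 was called (3 at an unadjusted p under 0.05).

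A minority of antigen presentation genes passed the test. Of 11 MHC class II genes 3 were lower and 0 higher, where 6.91% of all tested genes were lower. H2-Eb1 fell from 7684 and 7153 TPM to 3941 and 4449 TPM (log2 fold change −0.82, SE 0.13, adjusted p 0.000922), and H2-Oa and H2-Ob, which encode the modulator of peptide loading H2-O, also fell (log2 fold changes −1.13 and −0.71). H2-Aa, a class II α chain gene, had 15275 and 15486 TPM in WT and 10123 and 11185 TPM in cKO libraries and just missed the threshold (log2 fold change −0.53, SE 0.13, adjusted p 0.0104). Of 15 class I processing genes 4 were lower and 0 higher: B2m, the shared light chain (6471 and 5648 TPM in WT, 3138 and 3565 TPM in cKO), H2-K1 (−1.06), H2-D1 (−0.82) and Nlrc5, the transactivator of class I genes (−1.27). The class I heavy chains are close paralogs. Without cKO cDC1 library 1 the counts were 1 and 0, and without WT library 1 or cKO library 2 the class I count was 1. Of 16 Toll-like receptor pathway genes Tlr6 alone was lower (−1.17), a share near that of all tested genes, and of 17 cathepsin and lysosomal genes none was called, with 9 at an unadjusted p under 0.05 by limma.

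DNA replication genes rose together. Of 27 tested genes 25 were higher and 0 lower, against 8.9% higher among all tested genes, and the median log2 fold change was 1.48. Mcm2, Mcm3 and Mcm6, subunits of the replicative helicase, rose from 51 and 55 TPM to 178 and 171 TPM, from 65.8 and 74.8 TPM to 217 and 221 TPM and from 90.3 and 99.2 TPM to 290.1 and 290.1 TPM (log2 fold changes 1.70, 1.63 and 1.61, adjusted p 2.72e-05, 4.26e-05 and 5.27e-05). Replicates of each genotype were close and the genotypes far apart. Lig1, the DNA ligase of replication, rose from 33.8 and 33.4 TPM to 106 and 107 TPM, the polymerase gene Pole from 7.54 and 9.38 TPM to 28 and 28.1 TPM, and the loading factor gene Cdc6 from 7.18 and 7.37 TPM to 24.8 and 24.2 TPM (log2 fold change 1.62, SE 0.18, adjusted p 0.000185). Pcna, the sliding clamp and the most abundant of the list, had 222 and 309.6 TPM in WT and 519.8 and 562 TPM in cKO libraries but was not called (adjusted p 0.0149). In the 10 fits without 1 library 20 to 27 were called. The same genes had a median log2 fold change of 0.96 in cDC2s, where 21 were called higher, and for none of the 27 was the difference between the cDC1 and cDC2 effects called.

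Replication promoters were searched for an E2F motif because these genes rose together, and 3 that carry it are shown. The letters TTTCCCGC and TTTGGCGC were searched on both strands in the 250 bases before the first RefSeq start of a gene (GRCm38.p6), a list for which 9040 of the tested genes had an entry. They were present in 5 of 22 replication genes with an entry (22.7%), namely Mcm5, Mcm6, Mcm7, Cdc6 and Pola1, in 5.62% of genes called higher, 1.82% of genes called lower and 2.82% of all tested genes with an entry. Over all 27025 promoters the share was 1.35%. The 5 genes rose (adjusted p 9.99e-05, 5.27e-05, 4.42e-05, 0.000185 and 0.000468), and Mcm5, Mcm7 and Pola1 are named for this motif only. Most replication genes with an entry and no match were called higher too, so the motif does not separate the genes that rose. Capitals mark the motif, on either strand, in 3 helicase subunit promoters.
Mcm5: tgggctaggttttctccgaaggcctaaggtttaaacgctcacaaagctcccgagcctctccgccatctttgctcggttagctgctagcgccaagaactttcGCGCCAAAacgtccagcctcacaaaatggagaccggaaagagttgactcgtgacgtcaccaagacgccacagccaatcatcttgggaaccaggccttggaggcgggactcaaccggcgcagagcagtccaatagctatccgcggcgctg
Mcm6: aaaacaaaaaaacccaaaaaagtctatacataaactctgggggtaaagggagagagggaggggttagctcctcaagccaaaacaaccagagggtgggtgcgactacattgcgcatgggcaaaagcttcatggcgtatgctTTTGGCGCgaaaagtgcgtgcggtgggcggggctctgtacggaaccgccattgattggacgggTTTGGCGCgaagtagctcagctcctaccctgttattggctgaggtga
Mcm7: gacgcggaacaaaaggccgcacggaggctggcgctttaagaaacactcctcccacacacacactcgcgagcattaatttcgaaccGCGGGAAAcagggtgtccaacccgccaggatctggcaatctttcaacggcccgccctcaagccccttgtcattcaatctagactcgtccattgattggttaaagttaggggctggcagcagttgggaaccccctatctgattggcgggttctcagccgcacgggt
The windows are chr8:75109259-75109508, plus strand, for Mcm5, chr1:128359706-128359955, minus strand, for Mcm6, and chr5:138171884-138172133, minus strand, for Mcm7. The motif begins 149 bases before the start in Mcm5, 110 and 47 bases before it in Mcm6, and 165 bases before it in Mcm7. A match is a description of these letters and not a measured binding site.

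Genes of the G1 phase changed with them. Of 20 tested cyclin, CDK, inhibitor and E2F genes 14 were higher and 1 lower, against 8.9% and 6.91% of all tested genes. Myc rose from 23 and 16.3 TPM to 90.4 and 80.9 TPM (log2 fold change 2.09, SE 0.25, adjusted p 0.000234), and Ccnd1, which encodes cyclin D1, from 138 and 139 TPM to 279.9 and 244 TPM (log2 fold change 0.91, SE 0.10, adjusted p 0.00042). Cdk6 (1.45), the cyclin E genes Ccne1 and Ccne2 (1.45 and 1.43) and the repressor gene E2f8 (1.70) also rose. The gene that fell was Cdkn2b, which encodes the CDK4 and CDK6 inhibitor p15 (6.63 and 3.44 TPM in WT, 0.08 and 0.58 TPM in cKO, log2 fold change −2.16, SE 0.45, adjusted p 0.00422). Without cKO cDC1 library 1, 7 were called higher, and without WT library 1 or cKO library 2, 8 and 9 were. Cdkn2b was not called without WT library 1 or either cKO library.

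Fewer G2 and mitosis genes passed. All 24 tested had positive fold changes with a median of 0.85, the median gene being at 0.18, and 5 were called higher, against 8.9% of all tested genes. Mki67, the proliferation antigen, rose from 28.4 and 49.1 TPM to 116 and 92.1 TPM (log2 fold change 1.44, SE 0.25, adjusted p 0.00382), Top2a from 36.1 and 57.4 TPM to 126 and 108 TPM, and Kif11, Bub1b and Bub1 by 1.20, 1.15 and 1.11. WT library 2 was the nearer to the cKO libraries in each of these 5 genes. The count was 0 without WT cDC1 library 1 or either cKO library and 11 without WT cDC1 library 2. It was 3 without WT cDC2 library 2 and 2 without cKO cDC2 library 1 or 3.

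Of 18 heterochromatin and gene silencing genes 7 were higher and 0 lower, where 8.9% of all tested genes were higher. Dnmt1, the maintenance DNA methyltransferase, rose from 40.8 and 43 TPM to 137 and 138 TPM (log2 fold change 1.69, SE 0.21, adjusted p 0.000279), and its partner gene Uhrf1, which is also on the replication list, from 39.5 and 41 TPM to 118 and 116 TPM. Cbx5, the gene of HP1α, rose from 12.6 and 13.4 TPM to 41.9 and 30.6 TPM, and the remodeller gene Hells from 39.5 and 41.4 TPM to 94.6 and 85.9 TPM. Lmnb1 and Dnmt3b rose by 1.14 and 1.10. Without WT cDC1 library 1 or either cKO cDC1 library 3 were called.

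Of 25 sterol and fatty acid synthesis genes 12 were higher and 0 lower, against 8.9% higher among all tested genes, with a median log2 fold change of 0.75. Scd2, a stearoyl-CoA desaturase, rose from 17.6 and 25.4 TPM to 74.6 and 65 TPM (log2 fold change 1.68, SE 0.18, adjusted p 0.000361). Fdps, which makes farnesyl pyrophosphate, rose from 71.5 and 73.8 TPM to 175 and 166 TPM, and Fasn, fatty acid synthase, from 47.4 and 48.5 TPM to 129 and 106 TPM. Srebf2, the factor that drives sterol genes, had 139 and 148 TPM in WT and 232 and 206 TPM in cKO and was not called (adjusted p 0.0405). The count was 4 to 14 in the 10 fits without 1 library, 4 without WT or cKO cDC1 library 1 and 5 without cKO cDC1 library 2.

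Of 9 tested lipid uptake and efflux genes 3 were lower and 0 higher, where 6.91% of all tested genes were lower. Apoe, the apolipoprotein that accepts exported cholesterol, fell from 166 and 140.1 TPM to 27.6 and 25.3 TPM (log2 fold change −2.49, SE 0.19, adjusted p 2.39e-05), and the cholesterol exporter gene Abcg1 from 71.4 and 54.4 TPM to 14.1 and 14.6 TPM (log2 fold change −2.04, SE 0.18, adjusted p 6.08e-05). Mylip, which degrades the LDL receptor, fell from 18.4 and 18.8 TPM to 9.1 and 9.58 TPM. All 3 are known targets of the liver X receptors, whose part in these values was not tested. In the 10 fits without 1 library the count was 2 to 3, with 2 called without either cKO cDC1 library. The groups of each were separate, as in 77.1% of all tested genes.

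Of 19 glycolysis genes 7 were higher and 0 lower, against 8.9% higher among all tested genes, with a median of 0.53. Tpi1 rose from 88.9 and 89.8 TPM to 197 and 198 TPM (log2 fold change 1.14, SE 0.11, adjusted p 0.000702), Eno1 by 0.96 and Gapdh, the most abundant, from 1581 and 1541 TPM to 2785 and 2815 TPM (log2 fold change 0.84, SE 0.11, adjusted p 0.00154). The glucose transporter gene Slc2a3 rose by 1.14. Of 29 nuclear oxidative phosphorylation genes 5 were higher and 0 lower, among them Atp5g1 (0.77) and Ndufv1 (0.71), and their median of 0.29 was near the 0.18 of all genes. The glycolysis count was 3 without WT library 1 or either cKO library and 4 without WT library 2. The oxidative phosphorylation count was 0 without WT library 2 or either cKO library and 2 without WT library 1. Of 35 cytosolic ribosomal protein genes 0 were called (6 at an unadjusted p under 0.05 by limma), with a median of −0.10.

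Among 16 heat shock and chaperone genes, again chosen with the values known, 4 were higher, where 8.9% of all tested genes were. Beside Hspa1b, Hspb1, a small heat shock protein, rose from 2.29 and 1.27 TPM to 12.3 and 15.6 TPM, the mitochondrial chaperone gene Hspd1 from 113 and 118 TPM to 292 and 259 TPM (log2 fold change 1.25, SE 0.10, adjusted p 7.29e-05), and Hsp90aa1 from 264 and 319 TPM to 627 and 540.1 TPM. Hspa8, the constitutive HSP70 gene and the most abundant of the list, had 3475 and 3396 TPM in WT and 4367 and 4045 TPM in cKO libraries and was not called (adjusted p 0.612). The count was 1 without WT or cKO cDC1 library 1 and 2 without WT or cKO cDC1 library 2. Of 16 unfolded protein response genes Chac1 alone was called, lower (−1.19).

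Some apoptosis genes were called on both sides of the balance, where 8.9% of all tested genes were higher and 6.91% lower. Bcl2l11, the gene of the BH3-only protein BIM, rose from 50.7 and 37.6 TPM to 82.7 and 82.5 TPM (log2 fold change 0.90, SE 0.16, adjusted p 0.00222), whereas the BH3-only genes Pmaip1, encoding NOXA, and Bmf fell from 341 and 648 TPM to 95.1 and 94.9 TPM and from 26.5 and 21.1 TPM to 10.5 and 10.5 TPM. Of 7 prosurvival genes 3 were lower. These were Bcl2l1, encoding BCL-XL (15.6 and 12.8 TPM in WT, 7.54 and 7.68 TPM in cKO, log2 fold change −0.82, SE 0.20, adjusted p 0.00924), and the A1 genes Bcl2a1a and Bcl2a1b (−1.11 and −1.92), near-identical copies whose values are uncertain. Of 13 death receptor and inhibitor of apoptosis genes Fas fell from 22.7 and 19.2 TPM to 3.07 and 3.65 TPM (log2 fold change −2.33, SE 0.30, adjusted p 0.000327), Cflar from 59.6 and 44.7 TPM to 16.5 and 20.3 TPM, as did Birc2 and Birc3 (log2 fold changes −1.28 and −1.07). None of 10 effector and apoptosome genes was called (6 at an unadjusted p under 0.05 by limma). The call of Bcl2l11 was lost without WT library 2 or either cKO library, and in a fit of the 4 cDC1 libraries alone. No prosurvival gene was called lower without WT library 1 or 2 or cKO library 1.

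Of 23 interferon-stimulated genes 4 were higher and 0 lower, against 8.9% and 6.91% of all tested genes, with a median of 0.39. Oas1a rose from 8.82 and 5.41 TPM to 17.4 and 17 TPM (log2 fold change 1.20, SE 0.23, adjusted p 0.00403), Oas3 from 3.99 and 2.44 TPM to 11.1 and 9.83 TPM and Cmpk2 from 2.09 and 2.64 TPM to 9.2 and 7.26 TPM, all antiviral genes. Ddx58, the RNA sensor RIG-I, rose by 0.72, and Irf7 had 178 and 137 TPM in WT and 262 and 248 TPM in cKO and was not called (adjusted p 0.111). The counts were 1 or 2 without any 1 cDC1 library. The motif of an interferon-stimulated response element (GAAA, any 2 bases, GAAA, on either strand) was present in the 250 bases before the start in 8 of 18 of these genes with an entry (44.4%) and in 2.82% of tested genes. It was present in 3.55% of genes called higher and 3.48% of genes called lower. Of the 4 called genes of the list, Oas1a and Oas3 had it and Cmpk2 and Ddx58 did not. The share of 44.4% thus describes the list and not the genes that rose. The Oas1a window (chr5:120907526-120907775, minus strand) is shown because its 2 copies, which overlap, begin 20 and 14 bases before the start and are in capitals.
Oas1a: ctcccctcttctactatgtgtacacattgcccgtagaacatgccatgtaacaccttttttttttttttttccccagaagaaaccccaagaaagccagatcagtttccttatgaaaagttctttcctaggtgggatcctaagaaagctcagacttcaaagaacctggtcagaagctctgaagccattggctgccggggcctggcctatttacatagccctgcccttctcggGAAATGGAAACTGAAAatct

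TRIM33 is known from TGF-β signalling, and of 21 tested genes of that pathway 3 were lower and 0 higher, against 6.91% and 8.9% of all tested genes, with a median log2 fold change of −0.01. Smad3 fell from 12.5 and 10.7 TPM to 5.39 and 4.87 TPM (log2 fold change −1.04, SE 0.23, adjusted p 0.00519), the receptor gene Tgfbr1 from 18 and 19.6 TPM to 11.5 and 9.53 TPM (log2 fold change −0.79, SE 0.12, adjusted p 0.000898), and Skil, a SMAD corepressor, from 26.5 and 64.5 TPM to 14 and 13.4 TPM. For Skil the WT libraries differed by more than the lower of them differed from the cKO libraries. The count was 0 without cKO cDC1 library 2 and 1 without WT library 2 or cKO library 1. Of 18 integrin and adhesion genes 6 were higher and 3 lower, against the same shares. Itgb7 rose from 159 and 158 TPM to 399.8 and 329 TPM (log2 fold change 1.19, SE 0.16, adjusted p 0.000485), while Itgae, whose product pairs with that of Itgb7, fell. The 6 and 3 calls were 2 and 2 without WT cDC1 library 1, and 3 and 1 without either cKO library.

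Genes beside Itgax were examined because cKO mice alone carry the Itgax-driven transgene. Of 10 tested, 3 were higher, against 8.9% of all tested genes: Cox6a2 (0.96 and 0 TPM in WT, 14.9 and 15.5 TPM in cKO), Itgam (1.46 and 1.83 TPM, then 11.3 and 9.44 TPM, log2 fold change 2.10, SE 0.18, adjusted p 4.28e-05) and Itgad (1.46 and 2.02 TPM, then 6.39 and 5.9 TPM). Itgax itself had 538 and 476 TPM in WT and 524 and 533 TPM in cKO libraries, with overlapping groups. Presence of the transgene and loss of TRIM33 cannot be told apart in these groups.

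**Figure D5:**
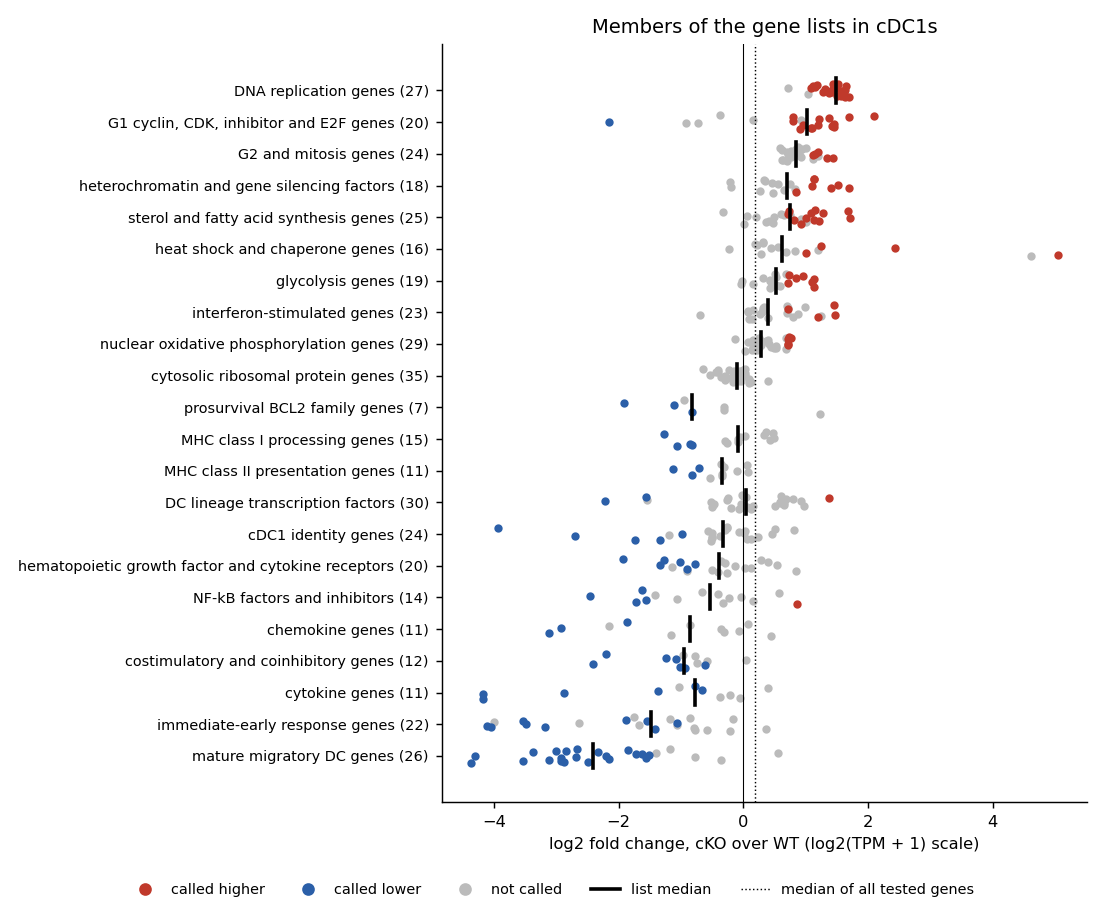
Log2 fold change (cKO over WT, log2(TPM + 1) scale) of each tested member of 22 gene lists in cDC1s, with the number tested in brackets, called genes in red (higher) or blue (lower), the list median as a bar and the median of all tested genes (0.18) as a dotted line. DNA replication genes lie to the right (25 of 27 called higher) and mature migratory DC genes to the left (21 of 26 called lower), while ribosomal protein genes lie near 0 with none called.

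Where the cDC1 response differed from that of cDC2s was tested as the difference of the 2 effects in the same fit. It was called for 225 of 11141 genes (2.02%), 76 with the higher value in cDC1s (0.682%) and 149 with the lower (1.34%). Genes named for the size of their cDC1 change were chosen on one of the effects compared, so a larger effect in cDC1s is favoured by that choice and is given as a description. The switched-on genes passed the minimum only through cKO cDC1s, a side of this difference, so they are described by their values. Il20ra stayed at 0.0633 ± 0.0551 TPM (SD, n = 3) in cKO cDC2s. Cnpy1 reached 4.54 ± 0.254 TPM (SD, n = 3) in cKO cDC2s from 0.617 ± 0.689 TPM in WT, and En2 reached 3.55 ± 0.553 TPM in cKO cDC2s. Flrt3 was higher in cKO cDC2s than in cKO cDC1s, with 179 ± 9.61 TPM, as was Csn2 at 53.5 ± 5.43 TPM. Selenbp2 and Slc9c1 had 179 ± 17.5 TPM and 23.7 ± 1.7 TPM in cKO cDC2s.

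Among the genes that fell, Il12b was 5.64 ± 1.55 TPM (SD, n = 3) in WT and 5.06 ± 1.27 TPM in cKO cDC2s, and its effects differed (difference −4.05, SE 0.38, adjusted p 0.000407). Dkk3 was already near 0 in WT cDC2s (0.327 ± 0.323 TPM, difference −4.10, SE 0.38, adjusted p 0.000372), and Adgrf5 was at 0.123 ± 0.0231 TPM there. Gp2, Mreg and Cd274 fell in both subsets, with larger log2 fold changes in cDC1s. Gp2 had only 5.27 ± 0.61 TPM (SD, n = 3) in WT cDC2s and 1.6 ± 0.364 TPM in cKO cDC2s. A low WT level limits the fall that the log2(TPM + 1) scale can show, for Gp2 as for Il12b. For Gp2 the log2 fold changes were −4.47 in cDC1s and −1.28 in cDC2s (difference −3.19, SE 0.22, adjusted p 7.45e-05). For Mreg they were −3.37 and −1.26 (difference −2.11, SE 0.22, adjusted p 0.000641), and for Cd274 −2.42 and −0.66 (difference −1.75, SE 0.18, adjusted p 0.000554). The log2 fold change of Bcl2l11 was larger in cDC2s (2.17) than in cDC1s (difference −1.27, SE 0.20, adjusted p 0.00539). WT cDC2s had less of it, with 14 ± 1.63 TPM (SD, n = 3) against 50.7 and 37.6 TPM in WT cDC1s. In cKO libraries cDC2s had 66.6 ± 5.66 TPM and cDC1s 82.7 and 82.5 TPM. For Ccr7, whose log2 fold change in cDC2s was −1.91, the difference did not pass (adjusted p 0.0214). In the 10 fits that left out 1 library the number of differences called was as low as 55, without cKO cDC1 library 1, and it was 88 without WT cDC1 library 1, 79 without cKO cDC1 library 2, 142 without cKO cDC2 library 1 and 93 without cKO cDC2 library 3.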

How the data were processed

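Splenic cDC1s and cDC2s were sorted and RNA was sequenced in 50-base single-end reads. Per the labels and the methods of the study, the authors cleaned reads with SOAPnuke, aligned with HISAT2 2.0.4 (mm10) and Bowtie2 2.2.5 and quantified with RSEM 1.2.12. They deposited TPM per gene, and FPKM in a second table that was used as an alternative. The transcript release and the use of strand are not given in the sources used here.

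limma 3.58.1 (R 4.3.3) was fitted to log2(TPM + 1) of the 10 cDC libraries as 4 group means (6 residual degrees of freedom, mean-variance trend), on deposited and on median-of-ratios scaled TPM, after a test on simulated data. With 2 libraries against 2 an exact permutation test cannot go below p = 0.333. Depth was estimated from the steps of low values. Same-numbered WT and cKO libraries did not consistently deviate together (correlations of deviations −0.232 in cDC1s and −0.256 to 0.276 in cDC2s), so the numbers were not taken to pair them. With 2 libraries a group in cDC1s this cannot decide whether they do.

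Genes were named by a rule: Trim33, its family and selected DC genes, the 15 largest changes each way, up to 6 called genes per list by size, genes that went between under 0.5 and at least 5 TPM, and abundant genes. The largest changes were taken among called genes with groups that did not overlap. The members, the rule and the 46 gene lists were chosen with earlier results of these data known, and the mature DC, immediate-early and heat shock lists after an earlier analysis had seen the values. Promoters are RefSeq's, GRCm38.p6. Gm609, Rbm33, Prim1, Insig1, Pogz, Npcd, Mcm5, Mcm7, Pola1, Sirpa, S100a9, Ngp, Hspa1a, Cd3e, Ncr1, Klrb1c, Ly6g and Pax5 lie outside the rule and were named after their values were seen. Some genes that the rule names are not reported here.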

Additional observations from a re-analysis of the deposited data

Results flagged for a closer look

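The effect of Trim33 loss differed between cDC1s and cDC2s in 18 of the 44 genes named for the size of their cDC1 change or chosen singly, by the limma test of the difference of the log2 fold changes (cDC1 minus cDC2, called by the same rule as the main calls), against 2.02% of all tested genes. Of the 18, 16 were among the 30 genes chosen for the largest cDC1 changes, which are one side of the difference, so the count is a description and no support for a response particular to cDC1s. The rise was larger in cDC1s for Cnpy1 (6.36), Epb41l4b (4.46), En2 (4.30), Il20ra (4.16), LOC108168956 (3.92) and Apcdd1 (3.28). The rise was larger in cDC2s for Flrt3 (−1.67) and Bcl2l11 (−1.27). Of the genes that rose, all but Epb41l4b and Bcl2l11 were under 0.5 TPM in both WT cDC1 libraries. They entered the test only through cKO cDC1s. The log2 fold change was lower in cDC1s for Dkk3 (−4.10), Il12b (−4.05), Mab21l3 (−3.64), Gm11837 (−3.43), Ltbp2 (−3.27), Gp2 (−3.19), Apol7c (−2.75), Apol7b (−2.67), Apol7a (−2.63) and Itgae (−2.26). WT cDC2s held little of several of these, with 0.327 ± 0.323 TPM of Dkk3, 0.38 ± 0.217 of Mab21l3, 0.48 ± 0.439 of Gm11837 and 1.03 ± 0.367 of Itgae (SD, n = 3), so that a fall there could hardly be measured. Ltbp2 (2.37 ± 0.411 TPM), Apol7a (4.15 ± 2.26 TPM), Gp2 (5.27 ± 0.61 TPM) and Il12b (5.64 ± 1.55 TPM) were also low there. That limits the fall that the log2(TPM + 1) scale can show. The 3 Apol7 genes are close paralogs whose reads may have been split, and LOC108168956 adjoins Epb41l4b. No group had 4 or more libraries, so single libraries that stand apart were not searched for by a rule on outliers.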

How the results depend on the processing

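Depth limits genes near the minimum, and only 2 libraries a side limit all calls. Against 1761 called genes, 3360 were called at an adjusted p of 0.05 with no fold limit (2067 higher, 1293 lower) and 777 at a fold limit of 1 on the log2 scale (322 and 455). Higher calls numbered 1849 on deposited TPM alone and 1551 on FPKM. Without 1 library the calls ranged from 625 to 1906, those higher from 339 to 1079 and those lower from 286 to 827, the fewest without cKO cDC1 library 1. The cDC1 minus cDC2 differences, 225 in all, were 352 after quantile normalization, 686 at an adjusted p of 0.05 with no fold limit and, without 1 library, 55 to 247. The cause was not tested.

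With the replicate number as a block there were 728 higher and 580 lower calls and 73 differences. The labels do not say whether the numbers pair the samples, and so few libraries cannot decide it. With the numbers crossed in cDC1s, a setting chosen after seeing the data, the counts were 772, 638 and 89.

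The sign turned for 5 uncalled genes. After median-of-ratios scaling Trim24 was at −0.10, Irf8 at −0.08, Batf3 at −0.14 and Itgax at −0.14. After quantile normalization Trim24 was at −0.07, Batf3 at −0.09 and Tmsb4x at 0.00. On FPKM Batf3 was at −0.01 and Itgax at −0.00. Without 1 library Batf3 ranged from −0.12 to 0.24 and Itgax from −0.03 to 0.15, both below 0 without WT cDC1 library 2. Of the 156 named genes that were called, 77 kept the call in all 24 alternatives, 74 lost it without at least 1 library, 24 under the block, 15 with the 4 cDC1 libraries alone and 5 under another scaling. Some uncalled genes gained a call: H2-Aa in 7 alternatives, Pcna in 5, Klrd1 in 4 and Cd8a in 3. Srebf2 and Zfp36 gained it in 2 each, and Xcr1 and Cst3 in 1 each.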
